A study of Mus musculus with 8 samples.

Results

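The Polycomb repressive complex genes were examined in E9.5 mouse embryos, in the tissue behind the heart tube that gives rise to the atrial septum and is named the posterior second heart field (pSHF). They comprised 10 genes, taken by their names in the array design: Ezh1, Ezh2, Eed, Suz12 and Jarid2 of complex 2, and Bmi1, Ring1, Rnf2, Cbx2 and Phc1 of complex 1. Every probe of each gene was kept, which gave 21 of the 41174 probes and 10 of the 27827 gene names on the array. The study asked which transcripts in the pSHF depend on Tbx5, a T-box transcription factor of the heart field. Each of 8 arrays held 1 pool of RNA, 4 from embryos heterozygous for a Tbx5 mutation (Tbx5-/+ in the labels, Tbx5+/- here) and 4 from wild-type embryos, and the labels number the pools 1, 5, 6 and 7 in both groups. The mice were of mixed background and their dams were hormone-primed. The study refers to an earlier report for its Tbx5+/- mice, and the sources used here do not themselves describe the mutant allele or give the number of embryos in a pool. The dissection removed the heart and neural tube and kept the attached foregut, so the tissue was a mixture of cells.

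Polycomb group proteins hold developmental genes in a silent state. In complex 2 (PRC2), Ezh2 or its paralog Ezh1 methylates lysine 27 of histone H3, Suz12 and Eed form the core that makes the enzyme active, and Jarid2 is a substoichiometric cofactor that guides the complex to chromatin. In complex 1 (PRC1), Rnf2 (RING1B) or its paralog Ring1 places ubiquitin on histone H2A together with a PCGF partner such as Bmi1, while Cbx2 binds the methyl mark and compacts chromatin and Phc1 multimerizes the complexes. Both complexes keep Hox genes and other patterning regulators silent where they are not used, and they are needed for normal heart and limb development.

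Most of these genes were read by several 60-base probes at different places of the transcript, and the values below differ between them. Shown here are 6 probes with at least 1 reading frame free of stop codons, for the PRC2 core, both ubiquitin ligases and the Phc1 probe with the lowest difference of all members, 5′ to 3′ as the array design gives them.
Ezh2 A_51_P248067: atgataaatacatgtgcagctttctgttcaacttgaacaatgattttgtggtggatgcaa
Eed A_51_P238643: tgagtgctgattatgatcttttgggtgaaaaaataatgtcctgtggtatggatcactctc
Suz12 A_52_P302203: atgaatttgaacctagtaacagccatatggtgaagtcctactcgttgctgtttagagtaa
Ring1 A_52_P41728: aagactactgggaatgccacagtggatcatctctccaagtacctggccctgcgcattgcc
Rnf2 A_52_P149743: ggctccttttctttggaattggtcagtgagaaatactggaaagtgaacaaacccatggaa
Phc1 A_52_P373369: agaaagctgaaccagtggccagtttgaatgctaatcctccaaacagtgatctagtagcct
On mm9, the build of the array files, the Suz12 probe lies on the plus strand at chr11:79826978-79827037, and on the minus strand lie the Ring1 probe at chr17:34158835-34158894, the Rnf2 probe at chr1:153318479-153318538 and the Phc1 probe at chr6:122272042-122272101. The Ezh2 probe (chr6:47482047-47482942) and the Eed probe (chr7:97113321-97116230) cover more genome than 60 bases and therefore cross at least 1 exon junction. The exon and UTR annotation of the probes was not analysed here.

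The promoters of 9 of the 10 genes, from RefSeq on GRCm38.p6 (250 bases before to 50 after the start, 10 promoters since Jarid2 had 2), were searched on both strands for E2F forms and a T-box element, because E2F factors are known regulators of Ezh2 and Eed and because Tbx5 was the mutated gene. Cbx2 was not in the table. Of the 3 E2F forms searched, TTTCCCGC, TTTGGCGC and TTTCGCGC, the first was present in the Suz12 promoter, 219 bases upstream of the start, and the second in the Ezh2 promoter just after the start. Any of the 3 was held by 1.84% of the 32851 promoters in the table. The T-box letters AGGTGTGA were in 0 of the 10 promoters and in 1.28% of all promoters. The stretch of the Suz12 promoter with the E2F form in capitals, on the plus strand at chr11:79992856-79992934, is shown because Suz12 had a probe with separated groups.
Suz12 promoter: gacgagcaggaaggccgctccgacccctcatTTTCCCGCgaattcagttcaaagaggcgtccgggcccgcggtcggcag
A match of letters is a description and not a binding site. The form in the Ezh2 promoter, TTTGGCGC, has other letters, and no promoter of the members held both forms.

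Signals below are background-subtracted intensities on the log2 scale after variance stabilization (VSN), which makes arrays comparable. Differences are Tbx5+/- minus wild-type with limma standard errors, and a probe was called at an adjusted p under 0.05 over all probes tested. Between 16 and 19 of the 21 member spots were well above local background on each array, and 0 were saturated. Testing required a signal well above background in all 4 pools of one genotype or of the other, and 18 of the 21 probes met it. The 3 others were 2 Eed probes and a Jarid2 probe, designed on other transcript records, and both of these Eed probes lie on the plus strand of chromosome 7, opposite to the tested Eed probe. One of these Eed probes was well above background on 2 Tbx5+/- arrays and 1 wild-type array, and the other 2 probes on none.

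**Figure D1:**
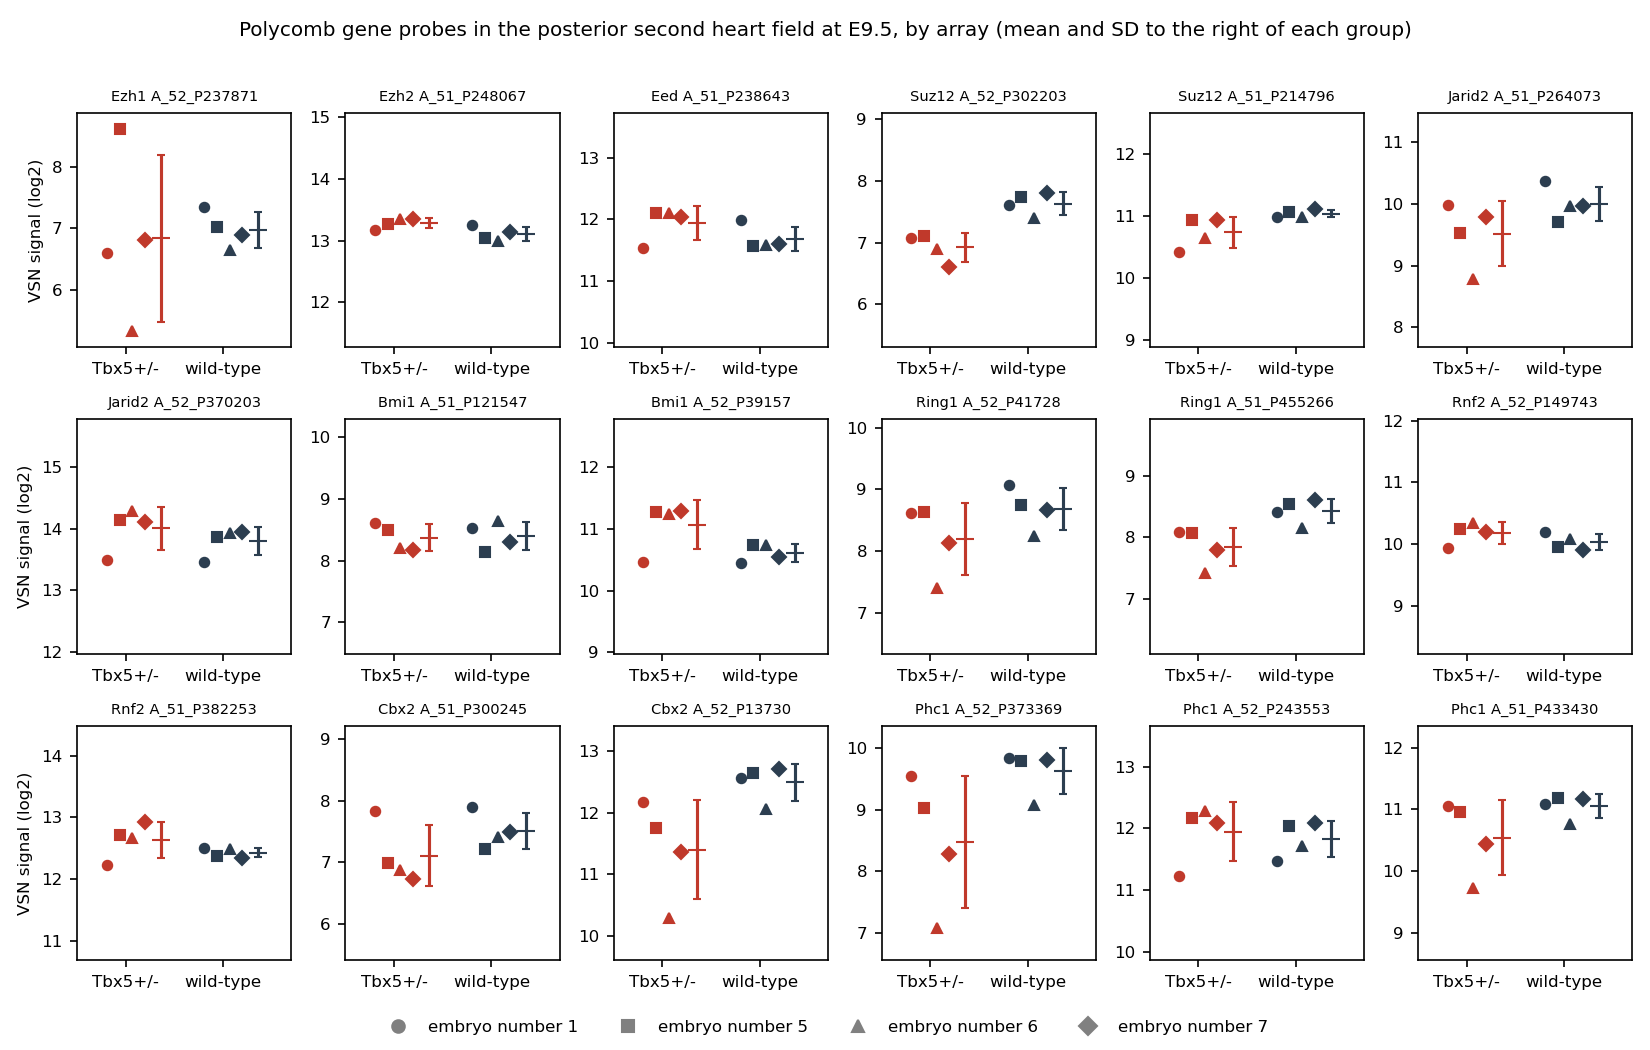
VSN signal (log2, vertical axis) of the 18 tested Polycomb gene probes on the 4 Tbx5+/- (red) and 4 wild-type (dark) arrays, with marker shapes for the embryo numbers and the mean and SD beside each group. Each panel spans the same height, and the groups are apart for both Suz12 probes and for Ring1 A_51_P455266.

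Several properties of the arrays moved with genotype. The share of spots well above background was 45.0% to 52.8% in Tbx5+/- and 50.9% to 63.6% in wild-type. The median difference over all 20031 probes tested was -0.19, so values relative to that median are also given. Over 1747 transcripts with tested probes at least 1000 bases apart, the most 3′ probe exceeded the most 5′ probe by a median of 1.82, 2.38, 2.48 and 2.51 (log2) in Tbx5+/- 1, 5, 6 and 7 and by 1.76, 1.99, 2.13 and 1.93 in wild-type, a property called the 3′ gap below. Tbx5+/- 1 lay among the wild-type arrays in this gap, and the other 3 Tbx5+/- arrays lay above them all. Tbx5 itself was lower on probe A_52_P523712, with 9.01, 9.73, 9.16 and 8.62 in Tbx5+/- against 11.47, 11.56, 10.42 and 11.54 in wild-type, a difference of -2.12 (SE 0.32, limma adjusted p = 0.0921), while its probe A_51_P469338 differed by -0.15.

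None of the 18 member probes was called. With limma, 4 were lower at an unadjusted p under 0.05 and 0 were higher, and the 4 were 1 probe each of Suz12, Ring1, Cbx2 and Phc1. The 4 are 22.2% of the member probes tested, against 18.5% of all probes lower and 3.38% higher at the same threshold, so the share of lower members was near the background. Of the 4, 1 (Suz12 A_52_P302203) had passed the filter only through the wild-type arrays, which favours lower values. Among the 15 member probes well above background on all 8 arrays 3 were lower. The groups did not overlap for 3 probes, this Suz12 probe among them, all lower in Tbx5+/- (16.7%, against 8.98% of all probes, with 0.744% of all probes apart in the higher direction). The median member difference was -0.22 beside -0.19 over all probes, and 9 of the 18 probes lay below the median of all probes. The direction of the bulk depended on the scaling. After scaling to the 75th percentile 1 member probe was lower and 5 were higher at an unadjusted p under 0.05 (8.61% and 15.6% of all probes), after normexp with quantile normalization 2 and 3 (9.49% and 9.42%), with arrays centred on their medians 1 and 5 (6.64% and 16.2%), and in the deposited values 4 and 0 (19.8% and 2.85%). In each of these 4 settings 0 member probes were called by limma, and 9 or 10 of the 18 lay below the median of all probes. In bulk tissue, fewer cells expressing a gene and less RNA per cell cannot be told apart.

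The labels share embryo numbers between the groups, and with this replicate number as a block 2 member probes were called, both lower (11.1%, against 10.7% of all probes lower and 0.379% higher). These were Cbx2 A_52_P13730 and Phc1 A_52_P373369. Without the Tbx5+/- 1 array limma called 4 member probes, Suz12 A_52_P302203, Cbx2 A_52_P13730 and Phc1 A_52_P373369 as lower (16.7%, against 12.1% of all probes) and Bmi1 A_52_P39157 as higher (7.03% of all probes were called higher). With array weights, which give noisier arrays less say, 9 were called, 6 lower (29.5% of all probes) and 3 higher (14.1%). The lowest weights were 0.18 (Tbx5+/- 1) and 0.31 (Tbx5+/- 6), and the highest 4.60 (wild-type 7) and 2.85 (Tbx5+/- 7). With the 3′ gap as a covariate, a fit chosen after the data were seen, 0 member probes and 0.0% of all probes were called in either direction. The main fit without the gap had also called 0 of both, so this count shows no effect of the covariate. Gap and genotype were partly confounded on these arrays, so the differences given with the covariate cannot tell them apart. Over all alternatives the limma adjusted p ranged from 0.00177 to 0.404 for this Suz12 probe, from 0.00248 to 0.538 for Cbx2, from 0.00467 to 0.752 for Phc1 and from 0.00489 to 0.903 for Bmi1, the lowest with array weights.

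**Figure D2:**
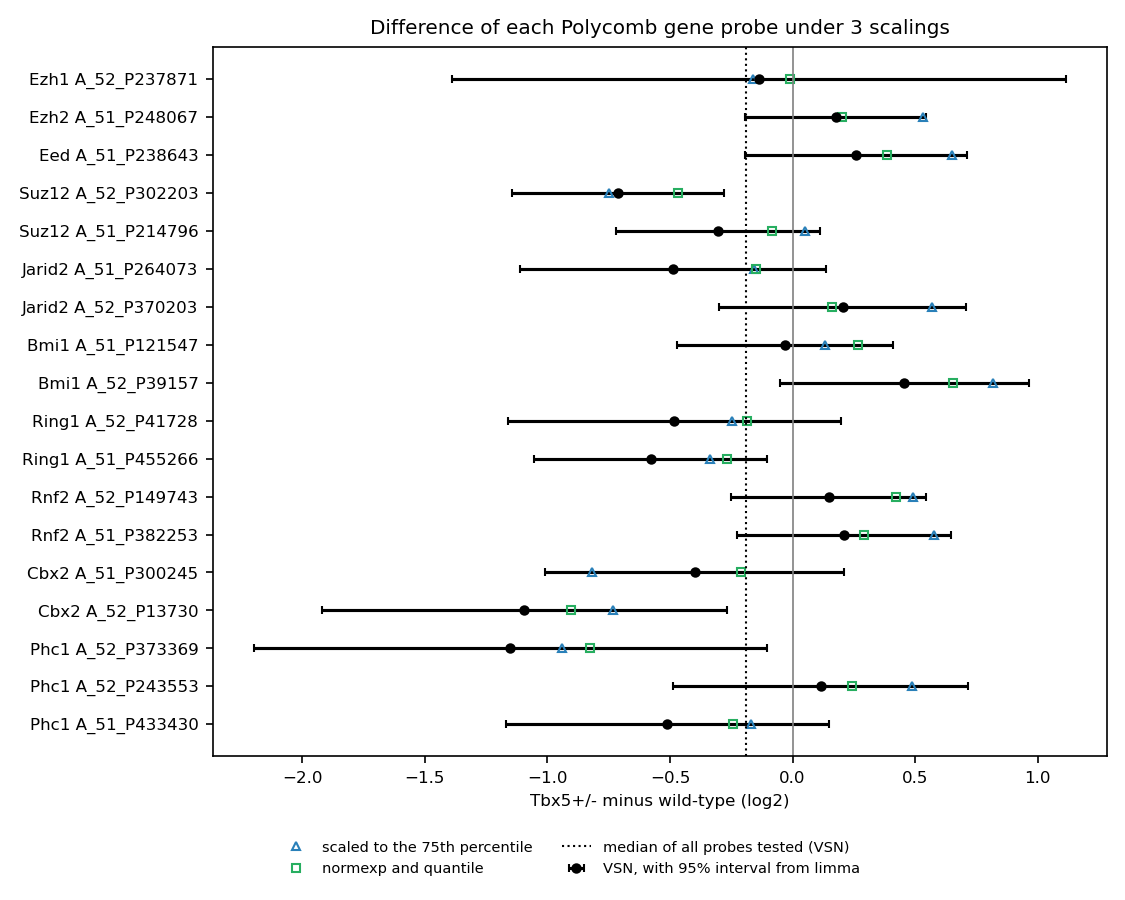
Difference in signal (Tbx5+/- minus wild-type, log2, horizontal axis) of the 18 tested probes under VSN with the 95% limma interval (black), after scaling to the 75th percentile (blue triangles) and after normexp with quantile normalization (green squares). The dotted line is the median of all probes under VSN, -0.19. The VSN intervals of Suz12 A_52_P302203, Ring1 A_51_P455266, Cbx2 A_52_P13730 and Phc1 A_52_P373369 lie below 0, and the blue triangles of most other probes lie to the right of the black points.

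Ezh2, the main H3K27 methyltransferase of dividing cells, was measured by 1 probe and was bright on every array. It read 13.17, 13.27, 13.35 and 13.35 in Tbx5+/- 1, 5, 6 and 7, and 13.25, 13.05, 12.99 and 13.14 in the wild-type arrays of the same numbers. Only Tbx5+/- 1 lay within the wild-type range. The difference was 0.18 (SE 0.16, limma adjusted p = 0.520), or 0.37 relative to the median of all probes, with a 95% interval from limma of -0.19 to 0.54. Ezh1, the paralog known from resting and differentiated cells, was dim. Its signals were 6.60, 8.61, 5.33 and 6.81 in Tbx5+/-, where 2 of 4 arrays were well above background, and 7.34, 7.02, 6.65 and 6.89 in wild-type. The Tbx5+/- arrays spanned more than the wild-type arrays on both sides, and the difference was -0.14 (SE 0.56, limma adjusted p = 0.896). Whether the paralogs changed unequally was tested within arrays. The change of Ezh2 minus that of Ezh1 was 0.31 (exact permutation p = 0.6), and the 4 embryo numbers gave 0.66, -1.37, 1.68 and 0.28 for 1, 5, 6 and 7. It rested on the spread of Ezh1: without Tbx5+/- 5 it was 0.91 (exact permutation p = 0.0286) and without Tbx5+/- 6 it was -0.21.

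Eed, the subunit that binds the methyl mark and stimulates the enzyme, gave 11.54, 12.11, 12.10 and 12.03 in Tbx5+/- and 11.98, 11.57, 11.59 and 11.61 in wild-type on its tested probe. The arrays of embryo number 1 stood apart in both groups, low in Tbx5+/- and high in wild-type, and within numbers 5, 6 and 7 the Tbx5+/- array was higher by 0.54, 0.51 and 0.43. The difference was 0.26 (limma adjusted p = 0.440). Ezh2 and Eed thus had their higher mean in Tbx5+/-, and neither difference passed the test.

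Suz12, the scaffold of the PRC2 core, lay in the opposite direction on both of its probes. On A_52_P302203 the Tbx5+/- arrays read 7.08, 7.11, 6.90 and 6.60 and the wild-type arrays 7.60, 7.74, 7.39 and 7.80. All 4 Tbx5+/- values were below all 4 wild-type values, and 3 of the 4 Tbx5+/- values and all wild-type values were well above background. The probe was thus tested only through its wild-type arrays, which favours lower values in Tbx5+/-. Tbx5+/- minus wild-type was -0.71 (SE 0.19), or 1.64-fold, and -0.52 after the median of all probes was subtracted. The limma adjusted p was 0.123, and the exact permutation p was 0.0286, the smallest that 4 against 4 arrays allow. It was lower in 4 of 4 embryo numbers, by -0.52, -0.62, -0.50 and -1.21. The replicate block gave a limma adjusted p of 0.0519, the fit without Tbx5+/- 1 gave 0.0315, and with the 3′ gap as a covariate the difference was -0.56 (limma adjusted p = 0.243). The brighter probe A_51_P214796, farther 3′ in the transcript, read 10.42, 10.94, 10.64 and 10.95 in Tbx5+/- and 10.99, 11.07, 10.99 and 11.12 in wild-type. Its groups were also apart but by a narrower margin, with a difference of -0.31 (limma adjusted p = 0.328), which turned to 0.05 after scaling to the 75th percentile and to 0.02 with arrays centred on their medians. The probes differed from each other by -0.41 in their change (exact permutation p = 0.0857), so the size of the Suz12 difference depended on the probe.

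Jarid2 is known from heart development, where its loss gives septal defects in mice. Its 2 tested probes lay on either side of 0. Probe A_51_P264073 read 9.98, 9.53, 8.78 and 9.79 in Tbx5+/- against 10.37, 9.71, 9.97 and 9.97 in wild-type, a difference of -0.49 (limma adjusted p = 0.304). The bright probe A_52_P370203 read 13.50, 14.13, 14.28 and 14.11 against 13.46, 13.86, 13.93 and 13.95, a difference of 0.20 (limma adjusted p = 0.586). The groups overlapped on both probes. The change of the first probe minus that of the second was -0.69 (exact permutation p = 0.229).

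Among the PRC1 ligases, Ring1 had the lower mean in Tbx5+/- and Rnf2 the higher. Ring1 A_51_P455266 read 8.09, 8.07, 7.42 and 7.79 in Tbx5+/- and 8.40, 8.53, 8.15 and 8.60 in wild-type. The groups did not overlap, and Tbx5+/- was lower in 4 of 4 embryo numbers. The difference was -0.58 (SE 0.21), 1.49-fold, or -0.39 relative to the median of all probes, with a limma adjusted p of 0.195, or 0.0666 with the replicate block. It was -0.33 after scaling to the 75th percentile, -0.27 after quantile normalization and -0.26 with arrays centred on their medians. The other Ring1 probe, A_52_P41728, gave 8.62, 8.63, 7.40 and 8.14 against 9.06, 8.74, 8.25 and 8.67, which overlapped, with a difference of -0.48 (limma adjusted p = 0.341). Both probes of this gene thus gave a similar size, and their changes differed by 0.10 (exact permutation p = 0.6).

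Rnf2, the ligase that embryos cannot do without, read 12.23, 12.71, 12.66 and 12.93 in Tbx5+/- and 12.50, 12.38, 12.49 and 12.35 in wild-type on A_51_P382253. Tbx5+/- 1 was the lowest of the 8 arrays and the other 3 Tbx5+/- arrays were the highest, with a difference of 0.21 (limma adjusted p = 0.520). On probe A_52_P149743 Tbx5+/- 1 lay within the wild-type range instead, with 9.93, 10.25, 10.34 and 10.20 against 10.20, 9.95, 10.08 and 9.90, and a difference of 0.15 (limma adjusted p = 0.621). The change of Ring1 minus that of Rnf2, each by its brightest probe, was -0.69. It was negative in 4 of 4 embryo numbers (-0.17, -0.45, -1.02 and -1.12), with an exact permutation p of 0.2, or 0.4 adjusted over the 2 paralog pairs compared. By the mean of all tested probes of each gene it was -0.71 (exact permutation p = 0.0571). Paired by embryo number, the exact sign-flip p was 0.125, the smallest that 4 pairs allow, so the paired test could not pass 0.05.

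Bmi1, a PCGF subunit known for restraining the Cdkn2a locus, was read by 2 probes. On A_52_P39157 the signals were 10.47, 11.28, 11.24 and 11.30 in Tbx5+/- and 10.45, 10.74, 10.74 and 10.54 in wild-type. Tbx5+/- 5, 6 and 7 lay above every wild-type array and Tbx5+/- 1 among them. The difference was 0.45 (limma adjusted p = 0.258), it was 0.65 without Tbx5+/- 1 (limma adjusted p = 0.0285), and with the 3′ gap as a covariate it was 0.06. Its correlation with the 3′ gap over the 8 arrays was 0.95. Probe A_51_P121547 lay between 8.18 and 8.61 in Tbx5+/- and between 8.14 and 8.64 in wild-type, with a difference of -0.03 that changed sign under other scalings.

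Cbx2, the chromobox subunit whose mutation gives homeotic changes of the skeleton, and Phc1, the polyhomeotic subunit, had the lowest differences of the members. On Cbx2 A_52_P13730 the Tbx5+/- arrays read 12.17, 11.75, 10.29 and 11.36 and the wild-type arrays 12.56, 12.64, 12.05 and 12.71. Tbx5+/- 1 lay above the lowest wild-type array, so the groups overlapped by that array, and the lowest array of each group was number 6. The difference was -1.09 (SE 0.37), 2.13-fold, or -0.90 relative to the median of all probes, with a limma adjusted p of 0.179. By embryo number 1, 5, 6 and 7 it was -0.39, -0.88, -1.75 and -1.35, and the limma adjusted p with the replicate block was 0.0388. Without Tbx5+/- 1 the difference was -1.35 (limma adjusted p = 0.0332), and without Tbx5+/- 6 it was -0.73 (limma adjusted p = 0.272). With the 3′ gap as a covariate it was -0.52 (limma adjusted p = 0.538). Probe A_51_P300245 was dimmer, lay between 6.73 and 7.84 in Tbx5+/- and between 7.22 and 7.90 in wild-type, and differed by -0.40 (limma adjusted p = 0.378). Its difference was -0.82 after scaling to the 75th percentile and -0.08 with arrays centred on their medians.

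The 3 probes of Phc1 did not give 1 answer. Probe A_52_P373369, shown above, read 9.54, 9.02, 7.08 and 8.28 in Tbx5+/- and 9.84, 9.80, 9.08 and 9.81 in wild-type. Its difference was -1.15 (SE 0.47), 2.22-fold, with a limma adjusted p of 0.209, of 0.0454 with the replicate block and of 0.0432 without Tbx5+/- 1, where the difference was -1.51. Without Tbx5+/- 6 the difference was -0.68 (limma adjusted p = 0.396). With the 3′ gap as a covariate it was -0.35 (limma adjusted p = 0.752). Farther 3′, probe A_52_P243553 read 11.23, 12.17, 12.29 and 12.09 against 11.47, 12.04, 11.71 and 12.10, a difference of 0.12 (limma adjusted p = 0.810). Farthest 3′, A_51_P433430 read 11.06, 10.95, 9.73 and 10.43 against 11.09, 11.18, 10.77 and 11.18, a difference of -0.51 (limma adjusted p = 0.306). The first and the last of these probes were both lowest in Tbx5+/- 6, where the second was at its highest. The change of the first probe minus that of the second was -1.27 (exact permutation p = 0.171), and over the 8 contrasts between probes of 1 gene the lowest adjusted p was 0.343.

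Each slide carried 2 arrays of each group, numbers 1 and 5 on the first and numbers 6 and 7 on the second, and scans followed slides. Of the 18 member probes, 15 had the same sign on both slides, 9 lower and 6 higher, and 75.8% of all probes had the same sign on both. The median member difference was -0.09 on the first slide and -0.47 on the second, where that of all probes was -0.18 and -0.20. Phc1 A_52_P373369 differed by -0.54 on the first slide and -1.77 on the second, and Cbx2 A_52_P13730 by -0.64 and -1.55. With the slide as a block 0 member probes were called by limma, and the adjusted p was 0.0823 for Suz12 A_52_P302203 and 0.0883 for Cbx2 A_52_P13730.

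**Figure D3:**
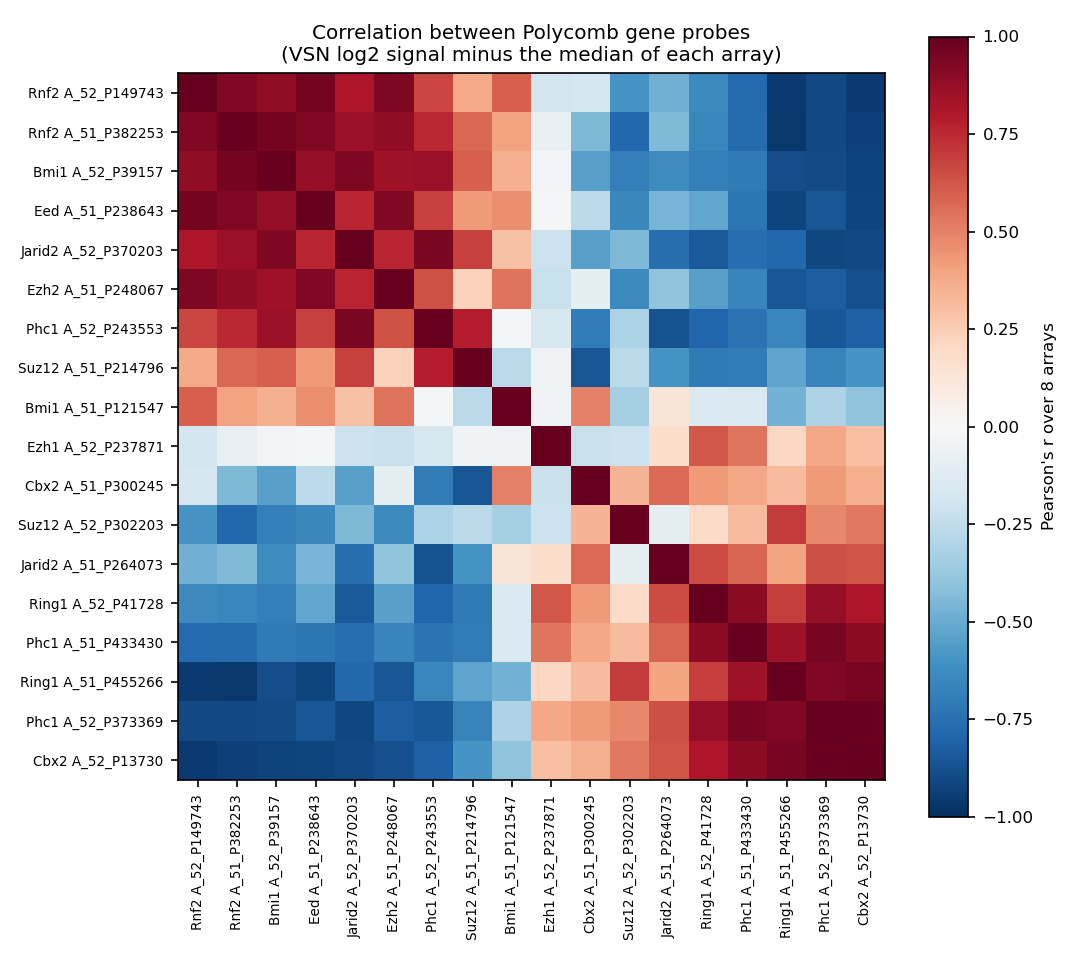
Pearson's r over the 8 arrays between the 18 tested probes, each centred on its array's median, ordered by r with Cbx2 A_52_P13730 (last). Rnf2, Eed, Ezh2 and the brighter probes of Bmi1 and Jarid2 form one block with high r among themselves, and Cbx2 A_52_P13730, Ring1 and 2 Phc1 probes another, with r from -0.82 to -0.96 between Cbx2 A_52_P13730 and the 7 probes of most negative r.

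Correlations of the members are described over 8 arrays that share group, slide and depth. Of the 17 other tested probes, 4 had an r above 0.8 with Cbx2 A_52_P13730, 7 had one below -0.8 and the others lay between, which were Ezh1 (0.30), both Suz12 probes (0.53 and -0.59), Jarid2 A_51_P264073 (0.63), Bmi1 A_51_P121547 (-0.40) and Cbx2 A_51_P300245 (0.36). It had r of 0.99 and 0.90 with Phc1 A_52_P373369 and A_51_P433430 and of 0.95 and 0.81 with Ring1 A_51_P455266 and A_52_P41728. It had r of -0.96 and -0.93 with the Rnf2 probes, -0.92 with Eed, -0.92 with Bmi1 A_52_P39157, -0.91 with Jarid2 A_52_P370203, -0.88 with Ezh2 and -0.82 with Phc1 A_52_P243553. After group means were removed, 4 and 6 of these 4 and 7 probes still had r beyond 0.8 in size. The pattern was common on the array: 15.1% of all probes had an r above 0.8 with this Cbx2 probe and 26.7% one below -0.8. The 3′ gap followed it, with r of -0.85 to Cbx2 A_52_P13730, -0.86 to Phc1 A_52_P373369, 0.91 to Rnf2 A_51_P382253 and 0.92 to Jarid2 A_52_P370203, and the part of the gap in these patterns was not tested beyond the fit with the covariate.

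The genes most alike in pattern to the brightest probe of each member were sought over 13936 other gene names. Hspd1 was most like Ezh2 (r = 0.997), Pus10 most like Eed (0.997), C230055K05Rik most like Suz12 (0.978), Map3k6 most like Jarid2 (0.994) and Rhbdd2 most like Ezh1 (0.946). For PRC1 the genes were Mycbp for Bmi1 (0.998), 2410001C21Rik for Ring1 (0.988), Sh3bgrl for Rnf2 (0.998), Pdlim7 for Cbx2 (0.996) and Zfp566 for Phc1 (0.995). With 8 arrays and that many genes, high values of r are found for most patterns, and they are given as a description.

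Partners of the complexes were taken from 5 lists covering PRC2, canonical and variant PRC1, the deubiquitinase PR-DUB with recruiters, and H3K27 demethylases. They held 37 genes, of which 35 were tested on 59 probes. With limma 0 probes were called, 15 were lower at an unadjusted p under 0.05 (25.4%, against 18.5% of all probes) and 0 were higher. Of the 15, 1 PRC2, 2 canonical PRC1 and 1 PR-DUB list probe had passed the filter only through the wild-type arrays, which favours lower values. The groups did not overlap for 9 lower probes (15.3%, against 8.98%) and for 1 higher probe. Their median difference was -0.24, or -0.02 after scaling to the 75th percentile. With the replicate block 9 were called, 8 of them lower (13.6%, against 10.7% of all probes).

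Mtf2, a Polycomb-like accessory subunit of PRC2, had the lowest differences of any partner. Its probe A_52_P106805 read 11.01, 9.96, 9.02 and 9.64 in Tbx5+/- and 11.61, 12.19, 11.33 and 12.17 in wild-type, a difference of -1.92 (SE 0.40, limma adjusted p = 0.0959, 0.0336 with the replicate block). Probes A_51_P264995 and A_52_P627306 differed by -1.66 and -1.64, also with groups apart and with limma adjusted p of 0.0348 and 0.0347 under the block. The fourth Mtf2 probe, A_51_P261001, is the farthest 3′ and went the other way, with 13.72, 14.86, 15.19 and 15.25 in Tbx5+/- and 14.12, 14.05, 14.34 and 13.87 in wild-type, a difference of 0.66 (limma adjusted p = 0.257, 0.0142 without Tbx5+/- 1). The probes of Mtf2 therefore disagreed in direction, as the probes of Phc1 and Jarid2 did under VSN.

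Phc3, a paralog of Phc1, differed by -1.07 (limma adjusted p = 0.120 over all probes, 0.0487 with the block) and Cbx6 A_52_P392121 by -1.32 (limma adjusted p = 0.208), while the 2 other Cbx6 probes differed by -0.50 and -0.46 with overlapping groups. Cbx6 A_52_P392121 was well above background on 3 of 4 Tbx5+/- arrays and was tested through its wild-type arrays. Of the variant PRC1 partners, Rybp A_52_P426692 was at -0.38 (limma adjusted p = 0.294), while Rybp A_51_P279505 was at -0.11 with overlapping groups. Pcgf1, the PCGF subunit of the BCOR complex, was the only partner with groups apart in the higher direction, at 0.27 (limma adjusted p = 0.343). Asxl2 A_52_P448854 of PR-DUB differed by -0.72 (limma adjusted p = 0.194) and Yy1 A_52_P325819, a DNA-binding factor related to fly Pho, by -0.78 (limma adjusted p = 0.162, 0.0399 with the block). Other probes of these genes had overlapping groups, with Asxl2 A_51_P250433 and A_52_P631247 at -0.47 and -0.15 and Yy1 A_51_P456320 and A_52_P317874 at -0.60 and -0.24. The demethylases Kdm6a and Kdm6b, named after their values were seen, differed by -1.01 and -1.28 with overlapping groups (limma adjusted p = 0.181 for both, 0.0469 and 0.0634 with the block).

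**Figure D4:**
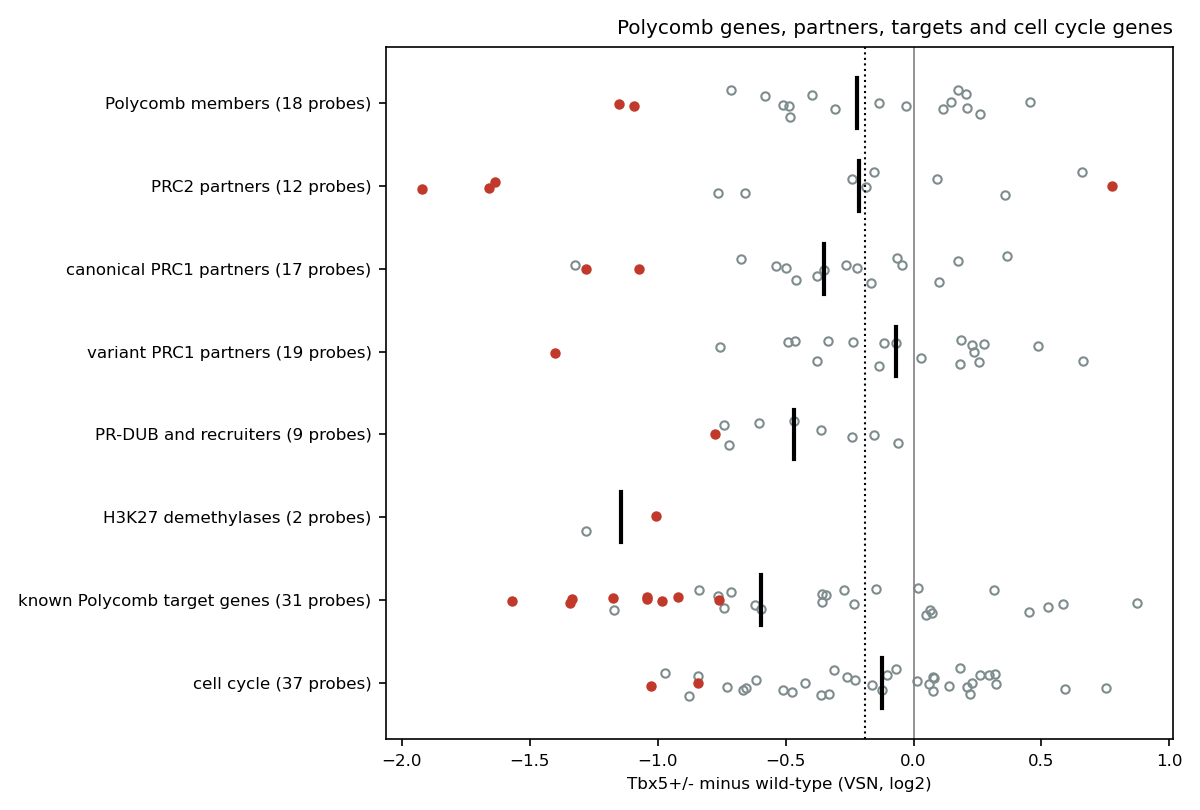
Difference in signal (Tbx5+/- minus wild-type, VSN, log2, horizontal axis) of each tested probe of the Polycomb genes, their partners, known target genes and cell cycle genes, with filled red points for probes called with the replicate block and black bars for list medians. The dotted line is the median of all probes, -0.19, and the target genes have a median of -0.59.

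Known Polycomb target genes, mostly Hox genes and regulators of other lineages, had 26 of 56 genes tested on 31 probes. For 10 of the targets, Cdkn2a among them, no array was well above background. With limma 0 probes were called, 9 (29.0%, against 18.5% of all probes) were lower at an unadjusted p under 0.05 and 0 were higher. With the replicate block 9 (29.0%, against 10.7%) were called, all lower. Of the 9 probes lower at that unadjusted p, 6 had passed the filter only through the wild-type arrays, which favours lower values, and among the 20 target probes well above background on all 8 arrays 3 were lower. The median of the 31 probes, which carries the same tilt, was -0.59, or -0.47 after scaling to the 75th percentile and -0.35 after quantile normalization. The lowest p belonged to Hoxb4 at 6.34 ± 0.50 in Tbx5+/- and 7.91 ± 0.38 in wild-type (SD, n = 4), a difference of -1.57 (limma adjusted p = 0.0921, 0.0336 with the block), but it was well above background on only 1 Tbx5+/- array and was tested through its wild-type arrays. Lhx2 followed at 10.82 ± 0.55 against 12.17 ± 0.40 (-1.34, limma adjusted p = 0.0965) and Hoxd1 at 7.15 ± 0.16 against 7.91 ± 0.23 (-0.76, limma adjusted p = 0.105), both with groups apart, and Hoxd1 was well above background on 3 of 4 Tbx5+/- arrays. Among targets of higher mean, Neurog2 (0.52), Pax6 (0.87) and Hoxb7 (0.58) overlapped between groups and had limma adjusted p of 0.442, 0.478 and 0.562.

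Cell cycle genes were set beside the members because Ezh2 is known to follow proliferation. All 24 were tested on 37 probes, with 0 called by limma, 9 lower (24.3%, against 18.5% of all probes) and 2 higher (5.41%, against 3.38%) at an unadjusted p under 0.05 and a median of -0.13, or 0.22 after scaling to the 75th percentile. Ccnd2 (-1.03), E2f1 (-0.84) and Top2a (-0.88) had the lowest p of those lower and Mcm6 (0.75), Mcm4 (0.59) and Pcna (0.32) of those higher, with limma adjusted p from 0.144 to 0.294. Only Ccnd2 and E2f1 passed with the replicate block (limma adjusted p of 0.0446 and 0.0424).

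Marker lists described the tissue of the arrays. Posterior second heart field markers were tested for 12 of 12 genes, with 8 of 17 probes (47.1%, against 18.5% of all probes) lower at an unadjusted p under 0.05, 5 of them tested only through the wild-type arrays. The list holds Tbx5, the mutated gene, whose probe A_52_P523712 counts among the 8. Among the 10 list probes well above background on all 8 arrays 3 were lower. The list had a median of -0.80 (-0.72 after scaling to the 75th percentile and -0.45 after quantile normalization) and list means of 9.15 to 9.95 in Tbx5+/- and 10.04 to 10.67 in wild-type. Cardiomyocyte markers spanned 12.55 to 13.67 and 13.05 to 13.86, endothelial markers 9.96 to 10.55 and 10.79 to 11.06 (5 of 14 probes lower), and liver bud markers 8.01 to 10.58 and 8.90 to 11.59 (2 of 6 lower). Foregut endoderm (11.25 to 11.65 and 11.35 to 11.95), neural tube (9.13 to 10.49 and 8.59 to 10.72), somite (9.54 to 10.45 and 9.54 to 10.54) and primitive erythrocyte markers (11.67 to 14.18 and 11.73 to 14.03) had 0 probes at an unadjusted p under 0.05 by limma. Neural tube markers were tested for 6 of 10 genes and somite markers for 4 of 8, while Sox1 and Myf5, which define the neural plate and muscle progenitors, were well above background on no array. The part of these lists in the differences of the Polycomb genes was not tested.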

How the data were processed

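RNA of 8 pSHF pools was measured on 1-color Agilent arrays with 60-base probes. Per the labels and file headers, the authors deposited intensity values from Agilent Feature Extraction 10.5.1.1 and a table of log2 values normalized between arrays by VSN, which holds 22405 probes. The flags deposited beside each spot (outlier, saturated, well above background) are other columns of the authors' software. From each spot's mean signal its local median background was taken away, outlier spots were dropped, repeated spots averaged (245 probes), and VSN was programmed in R 4.3.3 (90% of probes kept, 7 iterations). Every array correlated with its deposited log2 column at r of 0.9999 or more. The 20031 of 41174 probes whose 4 pools of either genotype all stood well above background were compared with limma 3.58.1, two-sided, with Benjamini-Hochberg adjustment over all of them and a threshold of 0.05. Single contrasts used exact two-sided permutation over 70 assignments (smallest p 0.0286). The study's own significance analysis tool was not run here. The procedures were tested on simulated data, and the number of arrays limits precision.

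The members, gene lists and tests were chosen with earlier results of these data known. Each member was named with every probe; partners were named where groups did not overlap, except for an item not reported here; for targets and cell cycle the 3 lowest p in each direction were named. The shared embryo numbers come from the labels. Same-numbered arrays deviated together from their group means (r = 0.438, 0.400, 0.593 and 0.137 for numbers 1, 5, 6 and 7), so the block with the replicate number was used as a paired analysis. Tbx5+/- 7 correlated more with wild-type 6 (0.372). Same-numbered arrays also lay side by side on a slide, at positions 1 and 2 or 3 and 4, so embryo number and slide position cannot be told apart. The labels do not say that pools were independent beyond calling them so, and p-values measure the spread between these pools. Alternatives were scaling to the 75th percentile of the processed signal, normexp (offset 50) with quantile normalization, centring on array medians, the deposited values, other filters, array weights, trend and robust, blocks, each array left out and, added after seeing the data, the 3′ gap as a covariate. RefSeq tables were used for names and promoters.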

Additional observations from a re-analysis of the deposited data

Results flagged for a closer look

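In 4 of 36 groups of 4 arrays, 1 array stood apart from the others by more than Dixon's critical value, and chance flags about 1 in 20 groups. For Eed A_51_P238643 these were Tbx5+/- 1 at 11.5, with the nearest other array at 12.0, and wild-type 1 at 12.0, with the nearest at 11.6. For Bmi1 A_52_P39157 it was Tbx5+/- 1 at 10.47, with the nearest at 11.24. For Phc1 A_52_P373369 it was wild-type 6 at 9.08, with the nearest at 9.80.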

How the results depend on the processing

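The number of called member probes (0) was 9 with array weights and 2 with the replicate block that pairs the embryo numbers, and leaving out 1 array gave 0 to 4, the 4 without Tbx5+/- 1. Those lower at an unadjusted p (4) were 1 under the 75th percentile scaling, 2 under quantile normalization, 1 under centring, 2 with the 3′ gap as a covariate, and 2 to 7 on leaving out 1 array, with 7 without Tbx5+/- 1 and 2 without wild-type 5 or 7. The scalings also moved the split of members at an unadjusted p from 4 lower and 0 higher to 1 and 5 (75th percentile and centred; 8.61% and 6.64% of all probes lower, 15.6% and 16.2% higher) and to 2 and 3 (quantile; 9.49% and 9.42%), and the median of all probes from -0.19 to 0.10, 0.13 and -0.02. The partner lists (0 called) had 9 called with the replicate block and 0 to 11 on leaving out 1 array, the 11 without Tbx5+/- 1. Ezh2 minus Ezh1 ran from -0.21 (without Tbx5+/- 6) to 0.91 (without Tbx5+/- 5).

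Directions reversed for Ezh1 after centring (0.18), with array weights (0.29), with the gap (0.00086) and on leaving out 1 array (-0.73 to 0.37, the latter without Tbx5+/- 6). They reversed for Suz12 A_51_P214796 at the 75th percentile (0.052) and after centring (0.016). For Bmi1 A_51_P121547 they did so at the 75th percentile (0.13), after quantile normalization (0.27), after centring (0.29), with the gap (0.12) and on leaving out 1 array (-0.12 to 0.049). With the gap as a covariate they also reversed for Jarid2 A_52_P370203 (-0.16), Rnf2 A_51_P382253 (-0.028), Cbx2 A_51_P300245 (0.12) and Phc1 A_52_P243553 (-0.33), and for the last on leaving out 1 array (-0.0036, without wild-type 1, to 0.35). The causes were not tested. The other member differences kept their direction under every alternative, and Ring1 minus Rnf2 kept its direction and did not pass. Signal over background limits Ezh1, Suz12 A_52_P302203 and Cbx2 A_51_P300245, which were not well above background on every array.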
